A study of Mus musculus with 4 samples.

Results

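The BCL2 family controls the mitochondrial route of apoptosis, and 10 of its genes were followed here in splenic B cells stimulated with LPS. They were chosen by name: 5 anti-apoptotic members (Bcl2, Bcl2l1, Mcl1, Bcl2a1b and Bcl2a1d), 3 BH3-only members (Bmf, Bcl2l11 and Bbc3) and 2 effectors (Bax and Bak1). All 10 were found by symbol among the 30041 genes listed in each file, and all 10 passed the filter on low values that 9727 genes passed (1 sample or more with a score no lower than 0.005). RNA-seq was done on 2 control and 2 cKO samples from C57BL/6 mice after 72 h with LPS, the bacterial cell wall component that activates B cells through Toll-like receptor 4. Control B cells were Nfkbiz fl/Δ without Cre, and cKO B cells were Nfkbiz fl/Δ Mb1 cre/+, in which Cre driven from the B cell gene Cd79a (mb-1) deletes the remaining floxed allele of Nfkbiz, the gene for the nuclear protein IκB-ζ. Both groups therefore carried 1 deleted allele in every cell, and Cre itself was present in the cKO group alone, so Cre and the deletion cannot be told apart. The labels give LPS at 20 mg/ml and the study's methods give 20 μg/ml. The age of the mice and whether samples of a group came from separate mice or cultures are not given in the sources used here, so the p-values measure the spread between these samples, which may be technical.

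Cells undergo mitochondrial apoptosis when Bax or Bak permeabilizes the outer mitochondrial membrane and cytochrome c escapes to activate caspases. Anti-apoptotic members hold Bax and Bak in check, and BH3-only members, which are induced or released by stress and growth factor loss, bind the anti-apoptotic members through a short helix called the BH3 domain, and some also activate Bax and Bak directly. In B cells Bim, the product of Bcl2l11, is known for removing autoreactive and unneeded cells, Mcl-1 and Bcl-xL for supporting activated cells, and A1, the product of the Bcl2a1 genes, for being induced by activating signals through NF-κB.

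The BH3 domain is the part of the protein that gives the BH3-only class its name, and its coding sequence is shown for this class, an effector and an anti-apoptotic member. The search used a loose core of 6 codons (leucine, 3 codons of any kind, glycine or alanine, aspartate) in the longest annotated translation of each gene. This core was found exactly 1 time in 8 of the 10 members, each time within 1 exon, and was not found in Bcl2a1b or Bcl2a1d. It is not specific, since 22.8% of the 21823 genes with a coding transcript hold it somewhere. The sequences below are 42 bases of the coding strand, 5′ to 3′, on NCBIM37 (mm9), with the codons of the leucine, the glycine or alanine and the aspartate in capitals. That of Bmf lies at chr2:118370833-118370874 on the minus strand, in exon 4 of 5. That of Bcl2l11 lies at chr2:127972874-127972915 on the plus strand, in exon 3 of 4, and that of Bbc3 at chr7:16899110-16899151 on the plus strand, in exon 3 of 4. That of Bax lies at chr7:52721364-52721405 on the minus strand, in exon 3 of 6, and that of Bcl2 at chr1:108609149-108609190 on the minus strand, in exon 1 of 2.
Bmf: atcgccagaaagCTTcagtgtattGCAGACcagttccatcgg
Bcl2l11: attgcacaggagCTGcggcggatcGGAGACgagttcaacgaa
Bbc3: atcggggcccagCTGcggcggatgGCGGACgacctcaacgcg
Bax: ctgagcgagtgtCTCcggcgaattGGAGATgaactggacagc
Bcl2: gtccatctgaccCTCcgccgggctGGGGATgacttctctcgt
Over these 42 bases, Bmf was identical to Bcl2l11 at 57.1% and to Bbc3 at 54.8% of positions, to Bak1 at 47.6%, to Bcl2 and Bax at 42.9%, to Mcl1 at 38.1% and to Bcl2l1 at 35.7%. The other BH3-only genes were thus the nearest to Bmf over this stretch.

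The authors deposited a score for each gene, printed to 5 decimals, whose unit is not stated. Low scores were examined in genes with 1 annotated transcript of 600 to 1600 bases. Multiplied by exon length, they fell near whole multiples of a step, as values scaled to exon length and library size would. In each sample 75.4 to 82.1% of them lay within 0.2 of a step. The step was the one that fit best in each sample, so part of this share is built in. Evenly spread values would also lie this near in part. If 1 step is 1 read, the samples held 17500000 to 19900000 reads. This scale is an inference, and levels of different genes are compared below only as scores per exon length on that inference. The targeted gene Nfkbiz scored 0.02409 and 0.02264 in control B cells and 0.0127 and 0.01156 in cKO B cells, a fall of 0.94 on the log2 scale (SE 0.0956, limma adjusted p = 0.0282), in the direction of the labels. The call of Nfkbiz was lost with no filter (limma adjusted p = 0.203), with no variance trend (0.0509), without cKO replicate 1 (0.134) and without cKO replicate 2 (0.0764), at log2 fold changes of -1.01 to -0.87. The score covers all exons together, so that of the floxed part was not measured.

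Of the 10 members, Bmf alone passed the threshold of 0.05 on the adjusted p of limma, and it was lower in cKO B cells. Over all genes tested, 1.25% were called lower and 0.812% higher. Bmf mRNA in cKO B cells was 0.333 times that in control B cells, whereas the remaining members lay between 0.718 and 1.10 times the control. For 8 of the 10 members the cKO samples both lay below the control samples, against 30.1% of all genes, and for 0 of 10 both lay above, against 28.1%. Bcl2a1b and Bcl2a1d share most of their sequence and are not independent among these 8. The members had a median log2 fold change of -0.27, against -0.010 over all genes, and 9 of 10 were negative, against 51.8% of all genes, although Mcl1 turned to 0.07 with quantile normalization. With an unadjusted p under 0.05, 5 members were lower and 0 higher, against 11.5% and 10.8% of all genes. Bcl2a1b and Bcl2a1d are among these 5. With the Bcl2a1 copies added into 1 row, 3 of the 8 other members were lower and 0 higher.

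**Figure D1:**
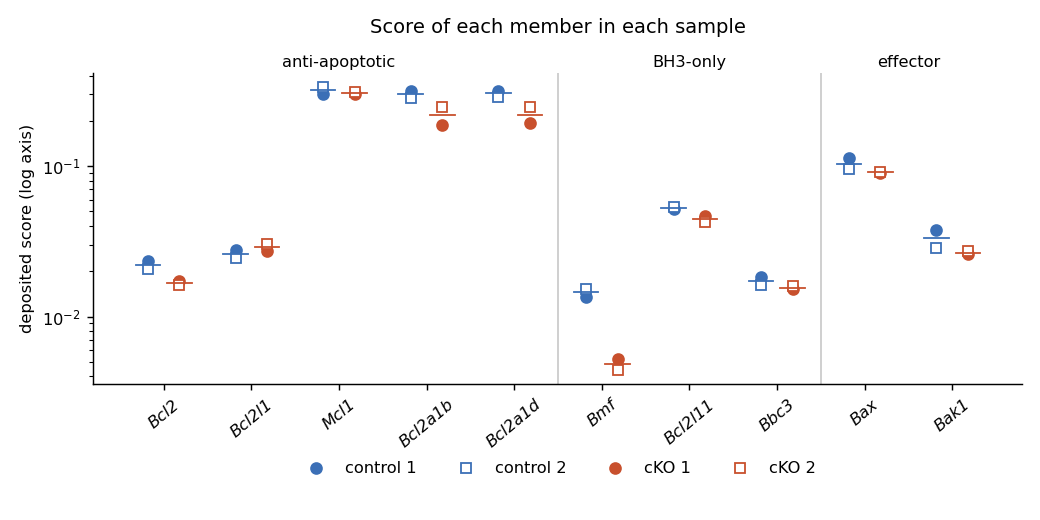
Deposited score (log axis) of each member in control (blue) and cKO (orange) samples, with circles for replicate 1, squares for replicate 2 and a short line at the group mean. The cKO points of Bmf sit at 0.00523 and 0.0044, well below its control points, and those of Mcl1 and Bcl2l1 overlap with control.

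In control B cells the anti-apoptotic Mcl1, Bcl2a1d and Bcl2a1b had the highest scores per exon length, with means of 0.320, 0.304 and 0.301, and their ranges overlapped. They were followed by Bax, Bcl2l11, Bak1, Bcl2l1, Bcl2, Bbc3 and Bmf, in this order, with no overlap between neighbours. Mcl1 stood at the 97.3rd percentile of the mean score over all genes kept and Bmf at the 25.8th, the lowest of the members. In cKO B cells Mcl1 lay above both Bcl2a1 genes, Bcl2l1 and Bak1 exchanged places and overlapped, and Bmf stayed last.

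The BH3-only class is described first, since it holds the called gene. Bmf, which is bound to dynein light chain and set free when cells detach or the cytoskeleton is disturbed, lies on the minus strand at chr2:118354493-118375423 and has 8 annotated transcripts. Bmf scored 0.01357 and 0.01533 in control and 0.00523 and 0.0044 in cKO B cells, or 0.0145 ± 0.00124 and 0.00481 ± 0.000587 (SD, n = 2 each). On the inferred scale, with the 5253 bases of all its annotated exons as length, these are about 1269, 1474, 547 and 404 reads. The length that the authors used for Bmf is not known, so these numbers are rough. Both cKO samples lay far below both control samples, and the gap between the groups exceeded the spread within either.

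Bmf fell by 1.57 on the log2(score + 0.0001) scale (SE 0.138, 95% confidence interval -1.91 to -1.23, limma adjusted p = 0.0215). This was the 30th lowest fold change of the 9727 genes. The call was lost without cKO replicate 1, where the log2 fold change was -1.69 (limma adjusted p = 0.100), and with no filter on low scores, where it was -1.57 (limma adjusted p = 0.203). Bmf is in a list of lower genes that the study chose on these same samples, so its fall here is not independent evidence. In bulk samples, fewer cells with Bmf mRNA and less Bmf mRNA per cell cannot be told apart.

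Bcl2l11, which codes for Bim and lies at chr2:127951774-127988283 on the plus strand, had the highest score of the BH3-only members. It scored 0.05164 and 0.05319 in control B cells and 0.0467 and 0.04248 in cKO B cells. The groups did not overlap, but the difference was small, with a log2 fold change of -0.23 (SE 0.0883, limma adjusted p = 0.207) and a 95% interval of 0.731 to 0.989 times the control. Bbc3, which codes for the p53 target Puma and lies at chr7:16894965-16903554 on the plus strand, scored 0.01846 and 0.01613 in control and 0.01518 and 0.01598 in cKO B cells. Its lower control sample and its higher cKO sample nearly coincided, and the log2 fold change was -0.15 (SE 0.103, limma adjusted p = 0.436), with an interval of 0.757 to 1.08 times the control.

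Within the class, Bmf and Bbc3 had similar scores in control B cells and different ones in cKO B cells. The score of Bmf over that of Bbc3 was 0.735 and 0.950 in control and 0.345 and 0.275 in cKO B cells. The score of Bmf over that of Bcl2l11 was 0.263 and 0.288 in control and 0.112 and 0.104 in cKO B cells. Both ratios were thus lower in both cKO samples, at 0.368 and 0.391 times the control mean. They largely restate the fall of Bmf, which is in the study's list of lower genes chosen on these same samples. For each ratio, the two-sided exact permutation p was 0.333, the smallest that 2 against 2 samples can give, so this design cannot reach the threshold. Bmf made up 16.2 and 18.1% of the summed score of the 3 BH3-only members in control and 7.79 and 7.00% in cKO B cells.

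**Figure D2:**
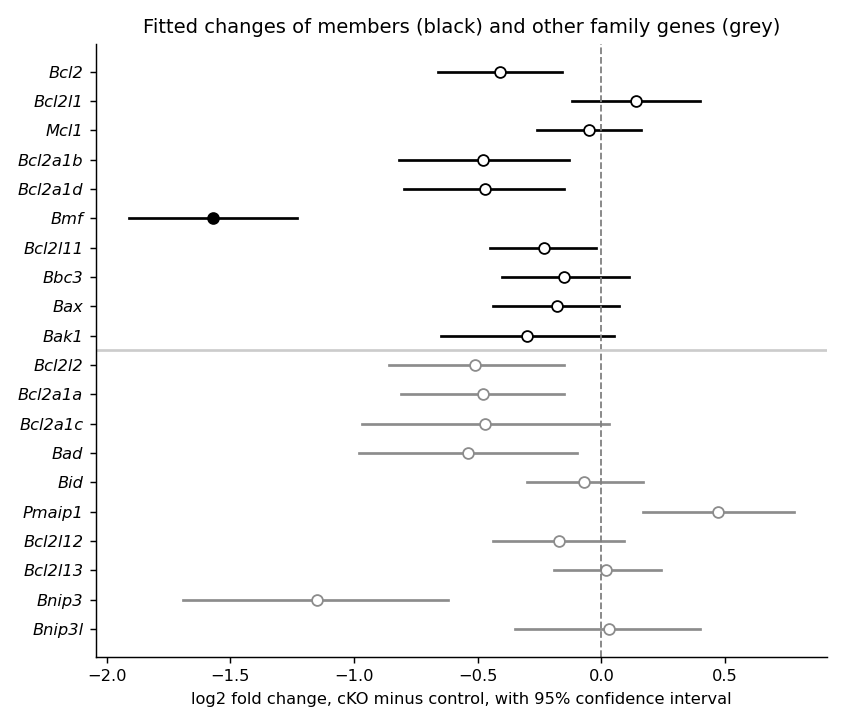
Log2 fold change of cKO minus control (x axis) with its 95% confidence interval from limma for the members (black) and for other family genes past the low-score filter (grey). The filled point, Bmf at -1.57, is the one with an adjusted p under 0.05.

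Among the anti-apoptotic members, Mcl1 and Bcl2l1 had overlapping groups. Mcl1, whose short-lived protein binds Bim and Bak, lies at chr3:95462643-95467099 on the plus strand and scored 0.30348 and 0.33561 in control and 0.30261 and 0.3132 in cKO B cells. Its log2 fold change was -0.05 (SE 0.0848, limma adjusted p = 0.739), and the interval ran from 0.835 to 1.11 times the control. Bcl2l1, which codes for Bcl-xL and lies at chr2:152593052-152657464 on the minus strand, scored 0.02773 and 0.02466 in control and 0.02727 and 0.03053 in cKO B cells. With the scores as deposited it was the only member with a positive value, at a log2 fold change of 0.14 (SE 0.105, limma adjusted p = 0.457) and an interval of 0.922 to 1.32 times the control.

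Bcl2, the founding member of the family, lies at chr1:108434755-108610851 on the minus strand and had lower scores in cKO B cells without passing the threshold. It scored 0.02353 and 0.02068 in control and 0.01713 and 0.01612 in cKO B cells, with no overlap. The log2 fold change was -0.41 (SE 0.101, limma adjusted p = 0.114), and the interval ran from 0.634 to 0.897 times the control. Without control replicate 2 it was -0.50 and passed (limma adjusted p = 0.0417). That fit holds 1 control sample, which is assumed to vary like the cKO samples, and it called 930 genes in all, against 201 with every sample. The score of Bcl2l1 over that of Bcl2 was 1.18 and 1.19 in control and 1.59 and 1.89 in cKO B cells, a value chosen for mention after it was seen.

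Bcl2a1b and Bcl2a1d are copies of the gene for A1 on chromosome 9, at chr9:89094047-89102665 on the plus strand and chr9:88618126-88626708 on the minus strand. Their coding sequences of 519 bases differ at 6 positions. The first 90 bases of each are shown because they carry 2 of these differences and show how little separates the copies (capitals, G4T and T48C, with the base of Bcl2a1b first and positions counted from 1 at the first base of the start codon).
Bcl2a1b: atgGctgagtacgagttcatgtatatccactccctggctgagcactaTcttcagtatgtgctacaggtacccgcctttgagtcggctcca
Bcl2a1d: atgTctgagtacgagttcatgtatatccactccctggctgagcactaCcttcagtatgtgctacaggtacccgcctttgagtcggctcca
Of all runs of 38 bases, the read length, 84.4% in the Bcl2a1b transcript and 90.4% in the Bcl2a1d transcript also occur in a transcript of another gene, namely another Bcl2a1 copy or the overlapping annotation of Mthfs among others. For Bmf this was 0 of 4605 runs, and it was at most 25 runs in each of the remaining members. How reads that match several copies were scored is not given in the sources used here, so the scores of the copies are uncertain as separate values.

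**Figure D3:**
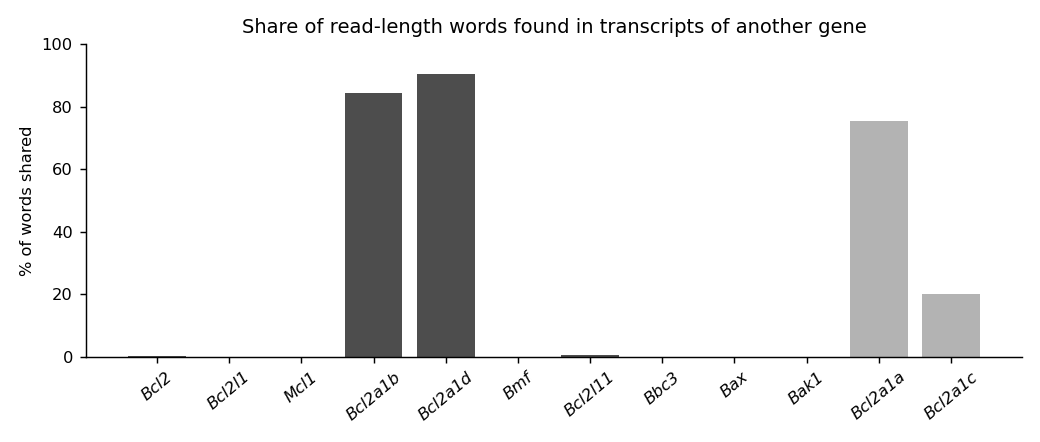
Percent of the 38-base runs of each gene's longest coding transcript that also occur in an annotated coding transcript of another gene, for the members (dark) and the other Bcl2a1 copies (light). Bcl2a1d and Bcl2a1b stand at 90.4 and 84.4%, and Bmf at 0.

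Bcl2a1b scored 0.31748 and 0.28413 in control and 0.1891 and 0.24605 in cKO B cells. Bcl2a1d scored 0.31819 and 0.28956 in control and 0.19393 and 0.24651 in cKO B cells. The scores of the copies were nearly equal in every sample, and in both genes cKO 1 lay below cKO 2, which lay below both control samples. The log2 fold changes were -0.48 (SE 0.141, limma adjusted p = 0.143) for Bcl2a1b and -0.47 (SE 0.131, limma adjusted p = 0.130) for Bcl2a1d. Without cKO replicate 1 they were -0.29 and -0.30. With the scores of all 4 Bcl2a1 copies added into 1 row, an alternative added after the data were seen, the log2 fold change was -0.48 (SE 0.138, limma adjusted p = 0.139).

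Both effectors had lower mean scores in cKO B cells, and neither passed the threshold. Bax, which moves from the cytosol to mitochondria on activation, lies at chr7:52717065-52722268 on the minus strand and scored 0.11253 and 0.09508 in control and 0.09051 and 0.09192 in cKO B cells. Its log2 fold change was -0.18 (SE 0.104, limma adjusted p = 0.352), and the interval ran from 0.739 to 1.05 times the control. Bak1, whose protein Bak resides in the mitochondrial outer membrane, lies at chr17:27156755-27165954 on the minus strand and scored 0.03767 and 0.02864 in control and 0.02586 and 0.02734 in cKO B cells. In both genes control 1 stood above the remaining samples and control 2 was close to the cKO samples. The log2 fold change of Bak1 was -0.30 (SE 0.142, limma adjusted p = 0.275) with all samples, -0.11 without control replicate 1 and -0.50 without control replicate 2, where it passed (limma adjusted p = 0.0359). The latter again set 1 control sample, control 1, against the cKO samples, with the spread taken from the cKO samples.

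The classes were then compared by their summed scores. The 5 anti-apoptotic members summed to 0.990 and 0.955 in control and 0.730 and 0.852 in cKO B cells, 0.814 times the control. The 3 BH3-only members summed to 0.0837 and 0.0847 in control and 0.0671 and 0.0629 in cKO B cells, 0.772 times the control. The 2 effectors summed to 0.150 and 0.124 in control and 0.116 and 0.119 in cKO B cells, 0.860 times the control. All 3 sums were lower in both cKO samples, and the anti-apoptotic sum consists mostly of Mcl1 and the Bcl2a1 copies. As the copies share most of their sequence, the same reads may be counted repeatedly in that sum. Sums without this repeat were not computed. Much of the fall of the BH3-only sum came from Bmf, with means of 0.0145 in control and 0.00481 in cKO B cells. With all measured genes of each class, the sums were 0.794 (anti-apoptotic), 0.869 (BH3-only) and 0.861 (effector) times the control. The BH3-only class thus had the largest fall with the members alone and the smallest with all measured genes.

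For the 10 members, the ratio of the class sums overlapped between the groups. The anti-apoptotic sum over the sum of BH3-only members and effectors was 4.23 and 4.58 in control and 3.98 and 4.68 in cKO B cells. The cKO values lay on both sides of the control values. The anti-apoptotic over the BH3-only sum also overlapped, at 11.8 and 11.3 in control and 10.9 and 13.6 in cKO B cells. Sums of all measured genes of each class hold every Bcl2a1 copy. The anti-apoptotic over the BH3-only sum was then 7.19 and 7.04 in control and 6.06 and 6.93 in cKO B cells, lower in both cKO samples. With the effectors added to the BH3-only sum it was 3.9 and 4.1 in control and 3.4 and 3.93 in cKO B cells, which overlap. The order of the groups in all these ratios may depend on how reads shared by the Bcl2a1 copies were counted. These sums weigh each gene by its mRNA score and say nothing of protein levels, which were not measured here.

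**Figure D4:**
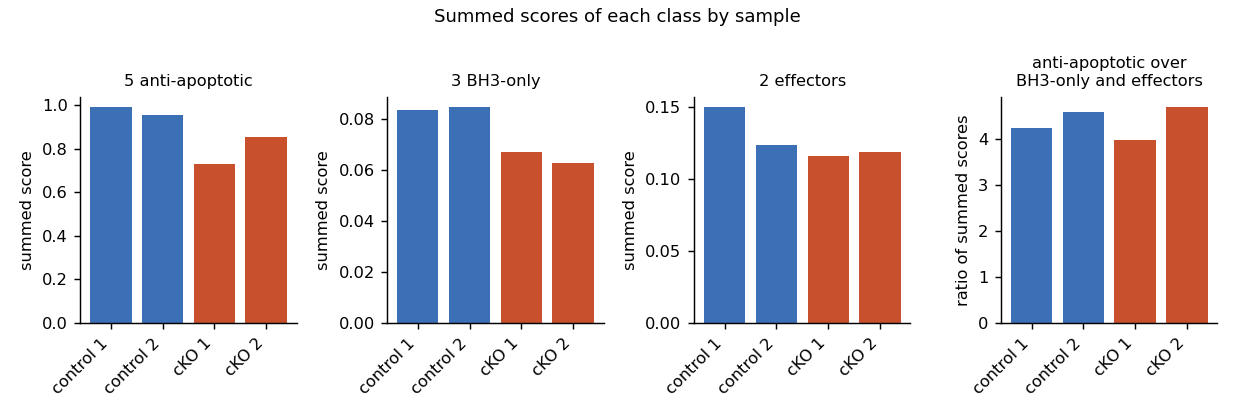
Summed score of each class in each sample, and in the last panel the anti-apoptotic sum over that of BH3-only members and effectors, with all axes from 0. The cKO bars (orange) are below the control bars (blue) in the first 3 panels and overlap with them in the last, from 3.98 to 4.68 against 4.23 to 4.58.

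Other family genes and partners of the members were read from lists of related genes. Of the 56 genes listed outside the members, 46 passed the low-score filter and 0 were called in either direction by limma. With an unadjusted p under 0.05, 7 were lower and 6 higher, 15.2 and 13.0% of those tested. Their median log2 fold change was -0.07. The remaining anti-apoptotic genes had a median of -0.48 over 3 genes, of which 2 are Bcl2a1 copies. The list of apoptosome genes and caspases had a median of -0.12 over 11 genes, the inhibitors of apoptosis 0.05 over 5, the death receptor genes -0.02 over 7, and the regulators and partners 0.04 over 13. None of these lists held a gene past the threshold, and their medians lay closer to that of all genes than did that of the members, apart from the anti-apoptotic list.

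Among the remaining BH3-only genes, values lay on both sides of 0. Pmaip1, which codes for Noxa, a binder of Mcl-1 and A1, scored 0.01071 and 0.00887 in control and 0.01391 and 0.01326 in cKO B cells. Both cKO samples were above both control samples, with a log2 fold change of 0.47 (SE 0.122, limma adjusted p = 0.118). Bad, which codes for a binder of Bcl-2 and Bcl-xL, scored 0.01704 and 0.01486 in control and 0.00917 and 0.01294 in cKO B cells, a log2 fold change of -0.54 (SE 0.178, limma adjusted p = 0.170) that was -0.30 without cKO replicate 1 and -0.79 without cKO replicate 2. Bid, whose product is cleaved by caspase-8, had overlapping groups and a log2 fold change of -0.07 (SE 0.0959, limma adjusted p = 0.710). Bik and Hrk did not pass the filter, with scores of at most 0.0003 and 0.00004. Bnip3, a distant relative named here after its values were seen, scored 0.00671 and 0.00876 in control and 0.00298 and 0.00386 in cKO B cells, a log2 fold change of -1.15 (SE 0.217, limma adjusted p = 0.0696). Like Bmf, Bnip3 is in the study's list of lower genes, chosen on these same samples.

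The dynein light chains bind Bmf and Bim. Dynll1 scored 0.19441 and 0.17656 in control and 0.14686 and 0.16351 in cKO B cells, with a log2 fold change of -0.26 (SE 0.0956, limma adjusted p = 0.203). Dynll2 scored 0.04036 and 0.04549 in control and 0.04706 and 0.04976 in cKO B cells, with a log2 fold change of 0.18 (SE 0.0958, limma adjusted p = 0.333). These light chain genes thus had values of opposite sign, and neither passed. Vdac2, which codes for a channel protein that binds Bak, had a log2 fold change of -0.27 (SE 0.117, limma adjusted p = 0.240), which was -0.14 without cKO replicate 1 and -0.41 without cKO replicate 2.

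**Figure D5:**
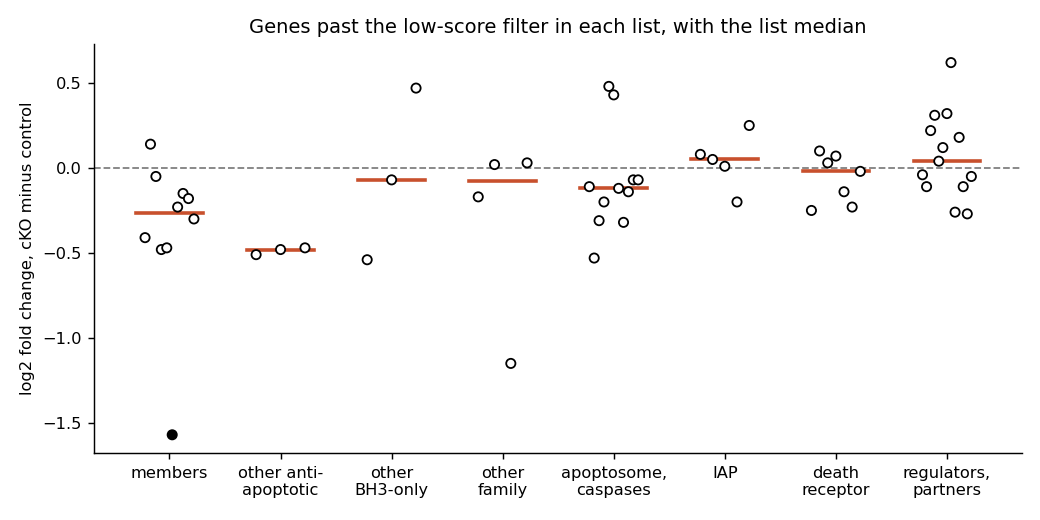
Log2 fold change (y axis, cKO minus control) of each gene past the low-score filter in the members and in the related lists, with an orange line at the median of each list and a filled point for an adjusted p under 0.05. Bmf, at -1.57 among the members, is the filled point, and the member median is -0.27.

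The profile of Bmf over the 4 samples was compared with those of all genes kept, by the Euclidean distance between log2 values centred on each gene's mean. The nearest was Rab31, which codes for a small GTPase of vesicle traffic, at a distance of 0.175, with scores of 0.01084 and 0.01372 in control and 0.00495 and 0.00386 in cKO B cells. Next were the predicted genes Gm10395 and Gm9746, at a distance of 0.244 each, with the same scores of 0.02238 and 0.02113 in control and 0.00814 and 0.00766 in cKO B cells. As their scores are equal in every sample, they may not be separate measurements. Like Bmf, Rab31 and these predicted genes are in the study's list of lower genes, chosen on these same samples.

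Markers of the labelled cell type and of other cells were read beside these results. The 8 B cell markers were detected in every sample, with a summed score of 2.42 and 2.71 in control and 2.35 and 2.33 in cKO B cells. Of these markers, 5 were lower and 2 higher in both cKO samples, against 30.1% and 28.1% of all genes. Cd79a, the gene that carries Cre, was called lower (log2 fold change -0.78, SE 0.0843, limma adjusted p = 0.0294). It had the highest score of these markers in control, at 0.66695 and 0.74312, against 0.41541 and 0.40714 in cKO B cells. The B cell sum therefore leans on Cd79a, and the sum without it was not computed. The 5 plasma cell genes were split, with 2 lower and 2 higher in both cKO samples (against 30.1% and 28.1% of all genes) and a median log2 fold change of 0.11. Of these, 1 was called, Prdm1, the gene for the plasma cell regulator Blimp-1, at a log2 fold change of -2.82 (SE 0.432, limma adjusted p = 0.0429). Prdm1 is in the study's list of lower genes, chosen on these same samples, so its fall here is not independent evidence. Sdc1, which codes for the plasma cell surface protein CD138, scored 0.00398 and 0.00418 in control and 0.00814 and 0.00604 in cKO B cells, at a log2 fold change of 0.77 (SE 0.194, limma adjusted p = 0.116). Igj, of the same list, went the other way, at 0.13385 and 0.07827 in control and 0.05523 and 0.05721 in cKO B cells. Its log2 fold change was -0.86 (SE 0.239, limma adjusted p = 0.13), so neither gene was called. By flow cytometry after LPS, the study found less CD138 on cKO B cells than on control B cells. That is a measure of surface protein, and the scores here are of mRNA. The 9 myeloid markers summed to 0.175 and 0.170 in control and 0.208 and 0.210 in cKO B cells, and 5 of them were higher in both cKO samples. Of the 3 myeloid markers past the low-score filter, 2 were higher in both, against 28.1% of all genes. Most of the myeloid sum was Itgam, whose groups overlapped, at 0.14119 and 0.14996 in control and 0.1346 and 0.15802 in cKO B cells. Its log2 fold change was 0.00 (SE 0.104, limma adjusted p = 0.988). Without Itgam the myeloid sum was 0.0341 and 0.0202 in control and 0.0732 and 0.0523 in cKO B cells. S100a9 was at 0 in all 4 samples. Lyz2, the myeloid marker highest after Itgam, scored 0.02052 and 0.01124 in control and 0.04852 and 0.03292 in cKO B cells. Its log2 fold change was 1.39 (SE 0.311, limma adjusted p = 0.0961), and no myeloid marker was called. The 8 T and NK cell markers summed to at most 0.00158 in any sample. The 4 erythroid markers summed to 0.00689 in control 1 and to at most 0.00153 elsewhere. The part of the myeloid and plasma cell genes in the lower score of Bmf was not tested.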

How the data were processed

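Libraries of poly(A) mRNA were sequenced on an Illumina GAIIx. The authors aligned reads to mm9 (TopHat), dropped low-quality, rRNA and tRNA reads and deposited a score per gene and sample. The step from reads to score and its unit are not given in the sources used here. Groups were taken from the sample titles. The 9727 genes that reached a score of 0.005 in 1 sample or more were tested by limma 3.58.1 (R 4.3.3, moderated variances with a trend) on log2(score + 0.0001), which understates changes of low genes, with Benjamini-Hochberg adjustment and a threshold of 0.05. The fit and the inferred read step were tested on simulated data drawn under their own assumptions. Whether the real scores meet these assumptions was not tested in this way. Exact permutation tests, class sums and counts were made with Python 3.11.15, pandas 2.3.3 and numpy 2.4.6. Positions and sequences come from NCBIM37 with GENCODE annotation, and exact 38-base runs were matched among coding transcripts.

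The members and lists were chosen with earlier results of these data known. Named were all members, Nfkbiz, list genes past the threshold, 6 direct partners (Dynll1, Dynll2, Vdac2, Bid, Pmaip1 and Bad) and the 3 profiles nearest to Bmf. Outside this rule, Bnip3, Bik, Hrk, Sdc1, Igj, Lyz2, Itgam and S100a9 were named after their values were seen. No p was adjusted over a list alone. Alternatives were another pseudocount, other filters, no variance trend, a replicate block, other scalings and leaving out each sample.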

Additional observations from a re-analysis of the deposited data

How the results depend on the processing

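Bmf kept its negative sign under all 12 alternatives, from -1.69 to -1.41 on the log2 scale, and its call under 10 of them, with limma adjusted p from 0.0021 to 0.203. It was -1.57 and not called with no filter, and ranged from -1.69 to -1.45 when single samples were left out, with the call lost without cKO replicate 1. A score above 0.05 leaves out Bmf and 4 more members, so 0 members were called, as with no filter. Members called lower numbered 0 to 3 when a sample was left out, with Bcl2 and Bak1 added without control replicate 2. Fits that leave out a sample assume that the lone sample of its group varies like the other group. Related genes called lower numbered 0 to 1 and higher 0 to 2 when a sample was left out.

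Over all genes, 122 were called lower and 79 higher. With no filter both counts were 0, while an unadjusted p under 0.05 was given to 1538 lower and 1665 higher genes. The counts were 22 and 11 with no variance trend, and 88 and 35 with a score above 0.05. They ranged from 0 to 430 and from 0 to 500 when a sample was left out. Without cKO replicate 1 both were 0, and limma gave 517 lower and 424 higher genes an unadjusted p under 0.05. With the replicate block, 180 and 177 genes were called, Bmf among them (log2 fold change -1.57, limma adjusted p = 0.0021), and 1 related gene, Bnip3. Same-numbered samples correlated at -0.145 in their deviations from the group means (Spearman -0.291), so the pairing by number was not used, and whether samples were paired in another way is not known. The crossed replicate block, added after the data were seen, gave 230 lower and 212 higher, with 1 related gene.

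Mcl1 changed sign with quantile normalization (0.07) and without control replicate 2, with a range of -0.12 to 0.02 over samples left out, and Bid without cKO replicate 1, with a range of -0.16 to 0.03. With all measured BH3-only genes, the sum of that class was 0.869 times the control in place of 0.772. With 2 samples a group, differences as small as those of Bbc3, Bax or Mcl1 were not resolved.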
